A study of Mus musculus with 2 samples.

Results

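The genes described here encode the subunits of the proteasome, the protease complex that degrades ubiquitin-tagged proteins, in mouse bone marrow-derived dendritic cells (BMDCs). They were taken by symbol: every gene named Psma, Psmb, Psmc, Psmd or Psme with a number, which gave 43 genes in the RefSeq gene table used. Of these, 42 had a probe on the array, out of 23786 named genes with a probe, and 41 were well above background on both arrays by the scanner program's flag, out of 13725. Psmb8, Psmb9, Psmb10, Psme1 and Psme2, the genes of the immunoproteasome, were read apart from the rest. Psme2 had no probe that could be named through its accession and is not analysed here. Psmb11, the thymus-specific catalytic subunit, did not reach that level on either array (signal 2.93 on the array labelled EGR1-deficient, 7.70 on that labelled wild-type, WT).

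The core particle of the proteasome is a barrel of stacked rings, with structural alpha subunits (Psma genes) on the outside and beta subunits (Psmb genes) on the inside, of which Psmb5, Psmb6 and Psmb7 carry the proteolytic sites. Regulatory particles built from ATPases (Psmc genes) and non-ATPase subunits (Psmd genes) cap the barrel, bind ubiquitin chains and unfold substrates. PA28-type and other activators (Psme genes) can take their place. In dendritic cells, and in other cells under interferon-gamma, Psmb8, Psmb9 and Psmb10 replace the constitutive catalytic subunits and give the immunoproteasome, which shapes the peptides loaded on MHC class I.

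The study compared BMDCs of EGR1-deficient mice, whose missing protein is a DNA-binding factor made early after cell stimulation, with BMDCs of WT mice. Both samples are labelled C57BL/6J and male. Marrow cells from femurs were cultured with 10 ng/ml GM-CSF and collected on day 6, and no further stimulus is named in the labels. The labels give neither the mice's age, nor how many mice gave each RNA, nor how Egr1 was disrupted. There was 1 array per label, so each value is a single reading without replicate error, and p-values are not given.

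Both arrays had similar brightness: of 59305 spots, 59.8% (labelled EGR1-deficient) and 55.2% (WT) were well above background. The targeted gene goes against the labels, since its signal was 1212 on the array labelled EGR1-deficient against 379.7 on the other, a log2 difference of 1.61. Where its probe lies relative to the disrupted part was not determined. Xist, normally made in female cells, read 4559 and 3425, against the male labels. Directions below therefore rest on the labels as given. Of 10 dendritic cell markers, 9 were above background on both arrays (all but Xcr1), with a median difference of 0.00 and summed signals of 44923 and 44833. Sums in this paragraph are of processed signals before scaling, over all markers with a probe. Differences are scaled as described below, and their medians cover markers above background on both arrays. All 12 macrophage markers were above background and below 0, with summed signals of 89956 (labelled EGR1-deficient) and 125250 (WT). All 6 markers of eosinophils, basophils and mast cells were also below 0, at 3167 against 4549 in sum. Granulocyte markers summed to 57704 and 51494. Markers of B cells (404.9 and 352.3), T and NK cells (249.6 and 170.6) and stroma (187.5 and 88.9) were low in sum. The B cell list had a median difference of −0.83, with 3 of its 4 measured markers below 0, against the direction of its sum. Among these lists Cd3g, Gzma, Ncr1, Col1a1 and Dcn were not above background. In bulk RNA, fewer cells of a type and less RNA per cell cannot be told apart, and the part of these cells in the proteasome values was not tested.

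Values are given as the processed signal of a gene's brightest probe, first on the array labelled EGR1-deficient and then on the WT array. The difference is the log2 ratio of the former to the latter after each signal was divided by its array's 75th percentile (191.6 and 183.0). A negative difference means a lower reading on the array labelled EGR1-deficient. The scanner program's own error of a difference had a median of 0.20 log2 units over the 41 measured subunits. It was nearly the same for all bright probes, so a difference counted in scanner errors is that difference rescaled. Repeated spots of a probe within 1 array had a smaller spread. Their median SD was 0.061 (labelled EGR1-deficient) and 0.056 (WT) over 282 probes. The SD between the differences of different probes had a median of 0.10 over the 16 subunits with more than 1 probe above background, and of 0.17 over 3571 genes with 2 probes.

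Proteasome subunit transcripts read slightly lower on the array labelled EGR1-deficient. The differences of the 41 subunits ran from −0.49 (Psmb8) to 0.27 (Psmd9), with a median of −0.18, against a median of −0.05 over all 13725 genes. Of the 41, 32 lay below 0 and 29 below the median of all genes, whereas 57.4% of all genes lay below 0. The first limit used was a log2 difference of 0.32, at which 1 array reads 25% above the other. Past it, 9 subunits were lower, which is 22.0% of them against 15.5% of all genes, and 0 were higher, against 11.4% of all genes. The 9 were Psma1, Psma2, Psma6, Psma7, Psmb6, Psmb8, Psmd5, Psmd11 and Psmd14, and Psmb7 lay just inside the limit. No subunit was 1.5-fold apart in either direction, where the shares of all genes were 4.17% lower and 3.51% higher, or 2-fold apart, where they were 1.01% and 0.707%.

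Proteasome probes were bright, with a median signal of 2089 against 194.6 over all genes, and bright probes read lower in general. Among the 2745 genes with the brightest 20% of probes the median difference was −0.10, and 10.0% were past the limit on the lower side and 2.04% on the higher side. The 30 subunits among them had a median of −0.20, with 6 of 30 past the limit, all lower, and 24 below 0, against 69.4% of the bright genes below 0. Over the 41 subunits the correlation of the difference with probe brightness was −0.04 (Pearson) and −0.00 (Spearman), across genes that share the same pair of arrays. The counts also moved with the scaling. The 9 lower and 0 higher subunits became 5 and 1 after loess normalization, 4 and 1 with the 75th percentile taken over spots above background on both arrays, and 2 and 1 with the authors' series table. For all genes the counts of 2130 lower (15.5%) and 1562 higher (11.4%) became 1455 (10.6%) and 2159 (15.7%) on that percentile. After loess normalization they became 2207 (16.1%) and 1388 (10.1%). With the series table, which lists fewer spots, they became 919 (7.21%) and 2374 (18.6%). There the median of all genes moved from −0.05 to 0.06. Under loess, that percentile and the series table, the share of subunits past the limit on the lower side was below that of all genes. Under the 8 alternatives, 23 to 30 subunits lay below the median of all genes in the same setting.

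**Figure D1:**
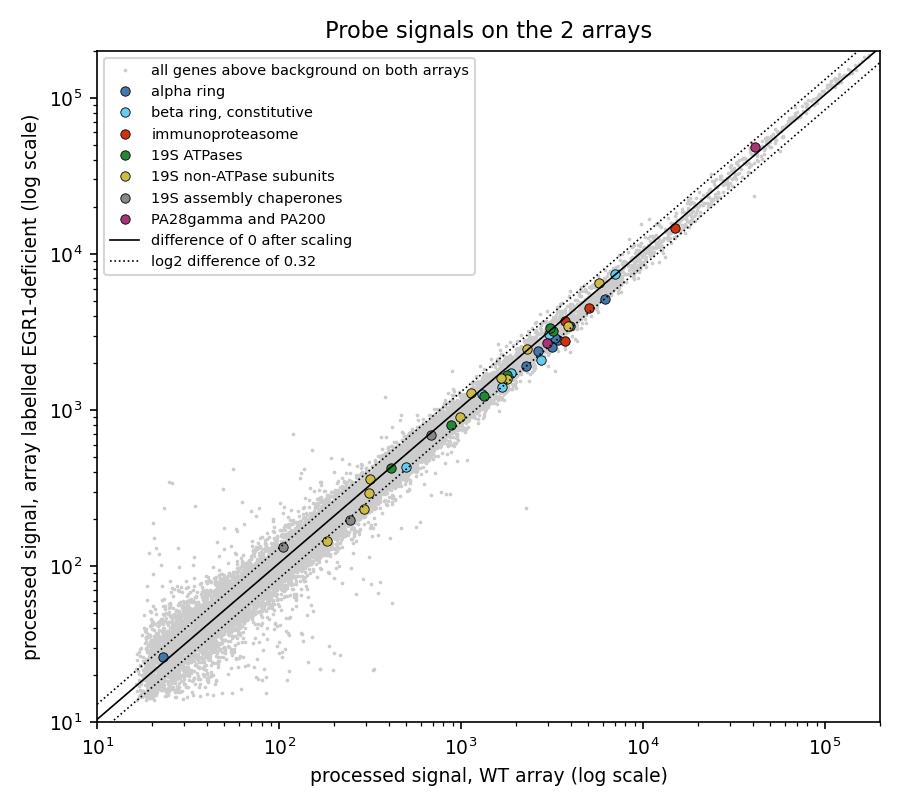
Processed signal of each gene's probe on the WT array (x axis, log scale) and on the array labelled EGR1-deficient (y axis, log scale). Grey points are the 13725 genes above background on both arrays, coloured points the 41 proteasome subunits by role. The solid line marks equal scaled signal and the dotted lines a log2 difference of 0.32 either way. All subunits lie close to the solid line, and 9 lie on or below the lower dotted line.

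The 4 measured immunoproteasome genes ran from −0.49 to −0.07, all below 0 (57.4% of all genes were), and the differences among them were not tested. Psmb8, the inducible chymotrypsin-like subunit, read 2775 against 3729, a difference of −0.49 or a scaled ratio of 0.711, the lowest of all 41 subunits. Psmb9, the inducible subunit that takes the caspase-like position, read 4498 against 5075 (−0.24). Psmb10, the inducible trypsin-like subunit, read 3724 against 3745 (−0.07). Psme1, which encodes the alpha chain of the PA28 activator, read 14691 against 14949 (−0.09). Psmb8 thus stood 2.42 scanner errors from 0, Psmb9 stood 1.18 errors away, and Psmb10 and Psme1 lay within 1 error of it. That error was 0.204 for each of these genes, so these figures only rank the differences by size. Each of these 4 genes was measured by 1 probe, so none of them has a second reading. Psmb8 stayed past the limit under the main setting and all 8 alternatives, with differences from −0.52 to −0.34. Psmb10 and Psme1 changed sign under 3 of the 8 alternatives, with ranges of −0.09 to 0.07 and −0.09 to 0.05.

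Psme2, the PA28 beta chain, has a near copy called Psme2b, also listed as Psme2-like, which falls outside the symbol rule. Its probes read 6044 against 6804 (−0.24) and 4120 against 4371 (−0.15). Whether these probes also bind Psme2 RNA was not tested.

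The median over the 4 measured immunoproteasome genes was −0.17 and over the 37 other subunits −0.18. The gap between these medians was 0.02, and over the 8 alternatives it ran from −0.03 to 0.07. It was not tested, and the 4 genes themselves run from −0.49 to −0.07. Past the limit of 0.32 on the lower side were Psmb8 among the 4 and 8 of the 37 (21.6%), beside 15.5% of all genes.

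The constitutive catalytic subunits read lower too. Psmb5, the chymotrypsin-like subunit that Psmb8 replaces, read 1726 against 1884 (−0.19). Psmb6, the caspase-like subunit replaced by Psmb9, read 2099 against 2751 (−0.46), and its other probe read 1545 against 1640 (−0.15). Psmb7, the trypsin-like subunit replaced by Psmb10, read 1404 against 1672 (−0.32). All of them were below the median of all genes, and Psmb6 was the second lowest of the 41 subunits.

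Set against its constitutive counterpart, Psmb8 differed by a further −0.30, whereas Psmb9 and Psmb10 differed by 0.22 and 0.24 in the other direction. These values use each gene's brightest probe. Against the other Psmb6 probe (−0.15), Psmb9 (−0.24) lay lower, the same direction as Psmb8 against Psmb5. The mean of the 3 changes in log2 ratio was 0.05 ± 0.31 (SD over 3 pairs, which are genes and not replicates). With the brightest probes the 3 pairs thus differed in direction, and that of Psmb9 and Psmb6 depended on the Psmb6 probe. With the mean of each gene's probes this mean was 0.00, because the second Psmb6 probe lies nearer 0.

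**Figure D2:**
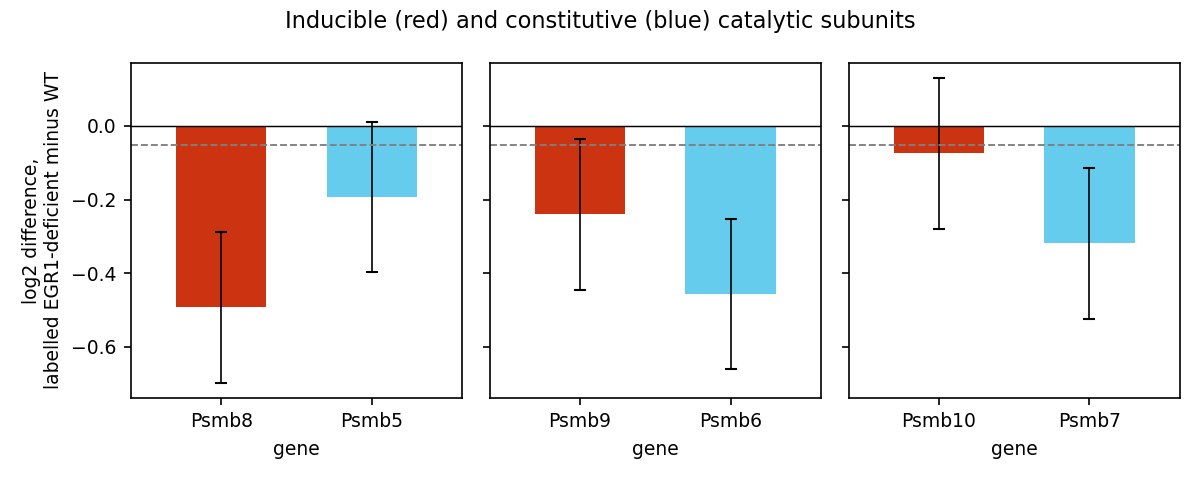
Log2 difference between the arrays (y axis) for each inducible catalytic subunit (red) and the constitutive subunit it replaces (blue). Bars start at 0, error bars are the scanner program's error of the difference and the dashed line is the median of all genes (−0.05). Psmb8 lies below Psmb5, while Psmb9 and Psmb10 lie above Psmb6 and Psmb7, and the error bars overlap in each pair. Each bar is the gene's brightest probe, and Psmb9 lies below the other Psmb6 probe (−0.15), which is not drawn.

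Psmb8 and Psmb9 lie side by side with the peptide transporter genes Tap1 and Tap2 on chromosome 17, in the order Psmb9, Tap1, Psmb8, Tap2. Psmb9 and Tap1 are transcribed in opposite directions from start sites so close that their 300-base promoter windows share 275 bases. Tap1 read 437.0 against 473.6 (−0.18, another probe −0.25), near the difference of Psmb9. Tap2 read 1481 against 1483 (−0.07). Psmb5 and Psmb11 are neighbours on chromosome 14, where Psme1 and Psme2 also lie with 1 gene, Emc9, between them. The differences in the chromosome 17 cluster thus ran from −0.07 to −0.49, with no common value.

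The promoters of the inducible catalytic genes and of Psmb6, the lowest constitutive subunit, are shown, because the inducible genes are textbook targets of interferon-gamma and differed among themselves here. Each run is the 250 bases before the RefSeq start, 5′ to 3′ on the gene's strand, from RefSeq windows on GRCm38.p6. They are Psmb8 (chr17:34197945-34198194, plus strand), Psmb9 (chr17:34187331-34187580, minus strand), Psmb10 (chr8:105938393-105938642, minus strand) and Psmb6 (chr11:70525107-70525356, plus strand). Capitals mark a match to the interferon-gamma-activated sequence (GAS, TTCNNNGAA) in Psmb8. In Psmb9 and Psmb6 they mark the letters TGANNNNGC, used here for the antioxidant element. Psmb8 also held these letters at bases 24 to 32 after the start, outside the run shown. Antioxidant elements are bound by Nfe2l1, which drives proteasome genes when proteasome activity falls. The letters searched are looser than a binding site and occur in 41.3% of all promoter windows. Whether Nfe2l1 binds the marked stretches was not tested.
Psmb8: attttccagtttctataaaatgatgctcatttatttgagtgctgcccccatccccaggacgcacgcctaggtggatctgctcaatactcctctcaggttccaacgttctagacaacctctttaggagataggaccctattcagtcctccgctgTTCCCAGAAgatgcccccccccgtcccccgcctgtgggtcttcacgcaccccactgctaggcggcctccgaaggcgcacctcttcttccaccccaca
Psmb9: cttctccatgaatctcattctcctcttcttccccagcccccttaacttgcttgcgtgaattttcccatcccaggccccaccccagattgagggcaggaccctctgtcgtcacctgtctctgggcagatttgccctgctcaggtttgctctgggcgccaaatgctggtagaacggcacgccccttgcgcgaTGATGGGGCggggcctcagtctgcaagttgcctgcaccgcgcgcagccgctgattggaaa
Psmb10: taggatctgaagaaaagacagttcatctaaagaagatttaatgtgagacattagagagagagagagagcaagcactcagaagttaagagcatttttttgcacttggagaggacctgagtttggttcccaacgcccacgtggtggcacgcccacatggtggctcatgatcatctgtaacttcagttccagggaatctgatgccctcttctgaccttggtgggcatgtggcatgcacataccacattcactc
Psmb6: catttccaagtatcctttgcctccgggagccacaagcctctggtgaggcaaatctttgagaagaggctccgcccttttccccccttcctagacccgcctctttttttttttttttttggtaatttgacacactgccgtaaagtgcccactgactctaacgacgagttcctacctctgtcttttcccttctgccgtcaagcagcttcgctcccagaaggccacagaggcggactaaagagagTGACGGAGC

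Windows of 300 bases, 250 before to 50 after the start, were held for 36 of the 43 subunit genes in 39 windows, and all motifs were searched on both strands. The EGR1 sites GCGTGGGCG and GCGGGGGCG were in 0 of the 39 windows, and in 0.612% and 2.91% of all 32851 windows. The GAS letters were in 2 windows (5.13%, against 8.30% of all windows), those of Psmb8 at bases −97 to −89 and of Psmd2 at bases 5 to 13 after the start. The interferon-stimulated response element (ISRE) was matched in 4 windows (10.3% against 3.44%), those of Psme1, Psmb3, Psmd4 and Psmd9. In Psme1 the match lay after the start, at bases 10 to 19. The antioxidant element letters were in 23 windows (59.0% against 41.3%), of 21 genes. A match is a description of letters and not a bound site. The 4 genes with an ISRE match had differences of −0.09, −0.04, 0.12 and 0.27, none of them past the limit of 0.32.

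The alpha ring lay in a narrow range. The 7 alpha subunits made in all tissues, Psma1 to Psma7, were all lower, with differences from −0.38 to −0.22 and a median of −0.32. Of all genes, 57.4% lay below 0. Psma1 read 2543 against 3162 (−0.38). Psma6 read 2826 against 3390 (−0.33, another probe −0.27). Psma2 read 1909 against 2287 (−0.33). Psma7 read 5181 against 6187 (−0.32), just past the limit of 0.32. These 4 genes are the alpha subunits past it, where 15.5% of all genes lay on the lower side. Psma4, Psma3 and Psma5 had differences of −0.26, −0.23 and −0.22. Psma4 was read by 4 probes, of which 3 lay between −0.33 and −0.26 and the fourth at 0.03.

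All 7 of these alpha subunits stayed below 0, and below the median of all genes, under the 8 alternatives, where their median ran from −0.32 to −0.18. None of the 7 alone exceeded 2 scanner errors. Psma8, the testis-specific alpha subunit, was barely above background, at 26.4 against 23.1 (0.13), and changed sign under 2 of the 7 alternatives that kept it.

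Of the structural beta subunits, Psmb2, Psmb3 and Psmb4 lay closer to 0 than Psma1 to Psma7, and Psmb1 lay within the range of those alpha subunits. Psmb1 had a difference of −0.26, Psmb2 of −0.12 (another probe 0.00), Psmb3 of −0.04 and Psmb4 of 0.01 (another probe 0.04). Psmb3 changed sign under 4 alternatives and Psmb4 under 1. With Psmb5, Psmb6 and Psmb7 included, the 7 constitutive beta subunits had a median of −0.19, with 6 of 7 below 0 and 1, Psmb6, past the limit of 0.32. Of all genes, 57.4% lay below 0 and 15.5% past the limit on the lower side.

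**Figure D3:**
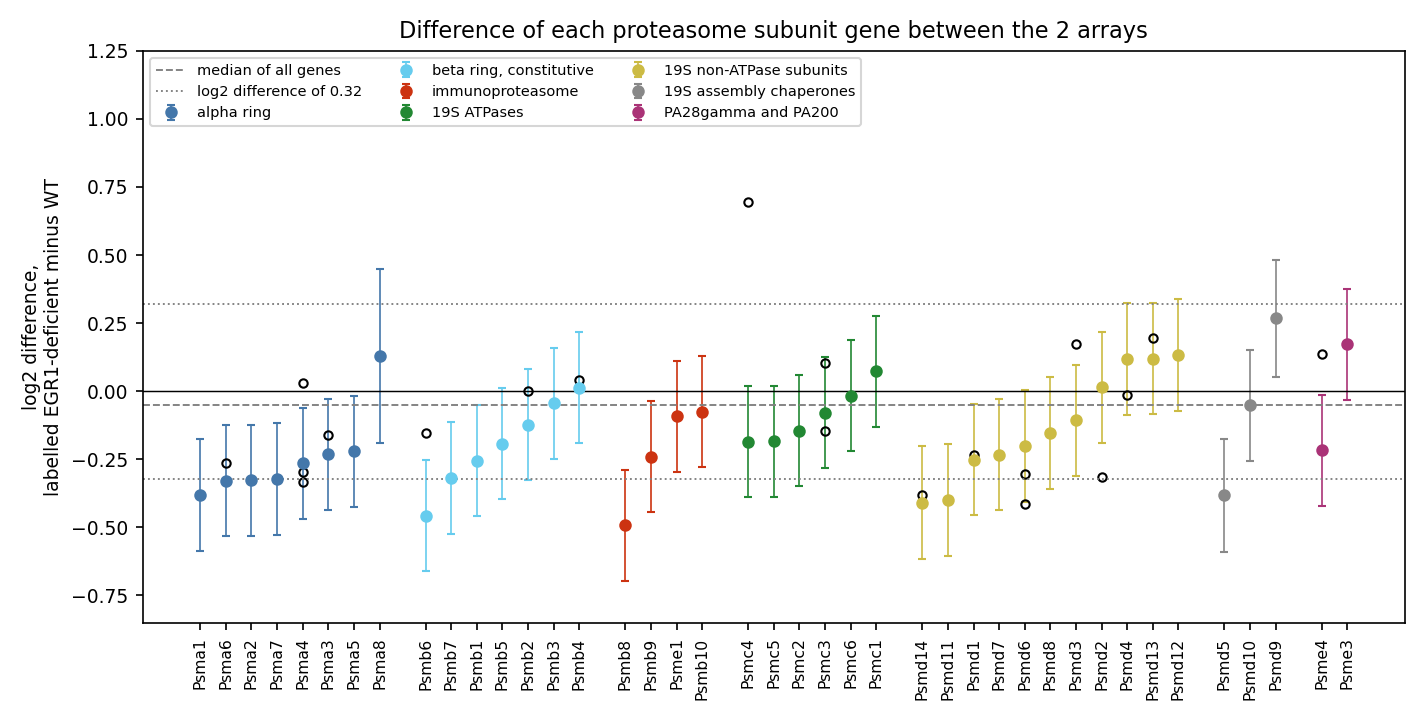
Log2 difference between the arrays (y axis) of each of the 41 proteasome subunits above background on both, grouped by role. Filled points are the brightest probe with the scanner program's error of the difference, open points the gene's other probes that passed on both arrays, the dashed line the median of all genes (−0.05) and the dotted lines a difference of 0.32 either way. Psma1 to Psma7 lie together between −0.38 and −0.22, whereas the non-ATPase subunits spread from −0.41 to 0.13.

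The 6 ATPases of the regulatory particle, which unfold and feed the substrate, lay near the median of all genes. Their median was −0.11, with 5 of 6 below 0 (57.4% of all genes) and 0 past the limit of 0.32 in either direction. Of all genes, 15.5% were past it on the lower side and 11.4% on the higher. The values ran from −0.18 (Psmc4 and Psmc5) to 0.07 (Psmc1), with Psmc2 at −0.15, Psmc3 at −0.08 and Psmc6 at −0.02. Psmc4 is uncertain, because its brightest probe read 808.2 against 877.3 and its other probe read 81.5 against 48.1 (0.69). With the mean of its probes Psmc4 was at 0.25. The median of the ATPases was 0.21 above that of the 7 alpha subunits, and this gap ran from 0.18 to 0.27 under the alternatives. It was not tested, since genes are not replicates.

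The 11 non-ATPase subunits were more dispersed, from −0.41 to 0.13. Psmd14, the deubiquitinase that removes ubiquitin chains at the entrance, read 144.2 against 182.9 (−0.41), and its other probe read 145.2 against 180.8 (−0.38). Psmd11, which helps hold the regulatory and core particles together, read 232.7 against 293.3 (−0.40). These were the genes of the group past the limit of 0.32, where 15.5% of all genes lay on the lower side. The scaffold subunit Psmd1 gave −0.25 with all 3 probes between −0.25 and −0.23. Psmd7, the partner of Psmd14, gave −0.23, Psmd6 −0.20 (other probes −0.42 and −0.30), Psmd8 −0.15 and Psmd3 −0.11 (another probe 0.17).

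On the other side of 0 lay Psmd12, a lid subunit, at 363.0 against 316.0 (0.13). Psmd13, also of the lid, was at 0.12 (another probe 0.20). The ubiquitin receptor Psmd4 was at 0.12 (another probe −0.02). The scaffold subunit Psmd2 was at 0.02 with its bright probe and at −0.31 with its other probe. The median of the group was −0.15, with 7 of 11 below 0, near the 57.4% of all genes. Psmd12, Psmd13 and Psmd4 stayed above 0 under all 8 alternatives, and Psmd14 and Psmd11 stayed below it.

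Psmd5, Psmd9 and Psmd10 encode chaperones that assemble the regulatory particle, and they differed in direction. Psmd5 read 197.3 against 245.7 (−0.38). Psmd9 read 132.7 against 105.3 (0.27), the highest difference of the 41 subunits. Psmd10 read 692.7 against 685.9 (−0.05), which is the median of all genes. Psmd5 and Psmd9 kept their signs under all 8 alternatives. Psmd9 passed the limit on the higher side with the 75th percentile over spots above background on both arrays (0.34) and with the series table (0.38).

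Of the activators that are not part of the immunoproteasome, Psme3, the nuclear PA28 gamma, read 48428 against 41039 (0.17). It was above 0 under all 8 alternatives, and past the limit after loess normalization (0.34). Psme4, which encodes the activator PA200, read 2680 against 2976 (−0.22), but its other probe was at 0.14.

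Agreement between probes varied. Of 16 subunits with more than 1 probe above background on both arrays, 8 had all probes on the same side of 0: Psma3, Psma6, Psmb4, Psmb6, Psmd1, Psmd6, Psmd13 and Psmd14. Psmc4 was the gene whose probes lay over 0.5 log2 units apart. Over settings, 23 of the 41 subunits stayed below 0 under the main setting and all 8 alternatives, 6 stayed above it and 12 took either sign. The gene table also lists pseudogene copies of Psma5, Psmb5, Psmb6 and Psmb7, so those readings are uncertain where a probe binds both.

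**Figure D4:**
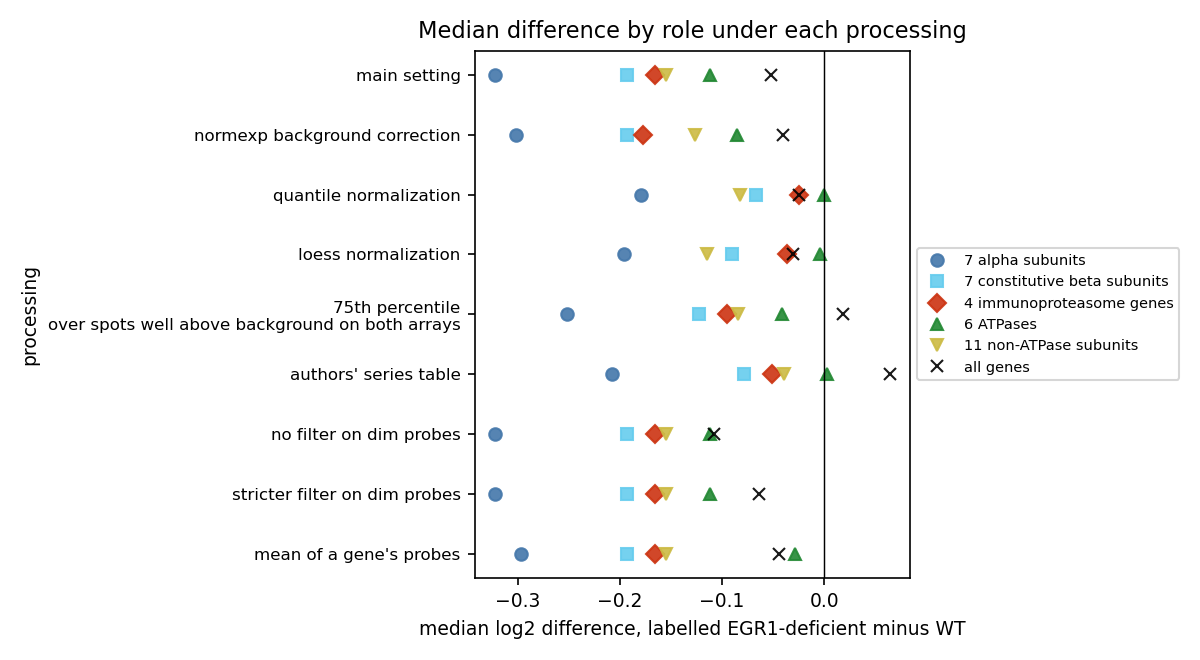
Median log2 difference between the arrays (x axis) of each group of subunits and of all genes under the main setting and 8 alternatives (y axis). The median of the 7 alpha subunits runs from −0.32 to −0.18, while the ATPases run from −0.11 to 0.00 and all genes from −0.11 to 0.06.

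Genes that serve the proteasome were read next. Of 16 measured assembly and partner genes, 13 were below 0 (57.4% of all genes were), with a median of −0.22. Past the limit were 6 on the lower side (15.5% of all genes) and 0 on the higher (11.4%). Psmf1, which encodes the inhibitor PI31, read 30.1 against 49.4 (−0.78, another probe −0.64), on dim probes. The assembly chaperone gene Psmg2 read 16.1 against 22.8 (−0.57), close to background. Other probes of some genes went the other way, such as Adrm1, a ubiquitin receptor gene, at −0.42 (another probe 0.48), and Ecpas, a proteasome adaptor gene, at −0.07 (other probes −0.32 and 0.45). Pomp, the maturation factor needed for new core particles, was at −0.17 (another probe −0.05), and Nfe2l1, a transcription factor for proteasome genes, at −0.25 (another probe 0.21).

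Ubiquitin supply lay closer to 0. Of 8 measured genes 6 were below 0, against 57.4% of all genes, with a median of −0.13. Past the limit were 0 in either direction, against 15.5% (lower) and 11.4% (higher) of all genes. Ufd1 and Nploc4, cofactors of the segregase VCP, were at −0.24 and 0.20.

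Downstream of the proteasome, 13 of 16 genes of class I peptide supply were below 0, and 3 were past the limit, all lower, with a median of −0.22. Over all genes 57.4% were below 0 and 15.5% past the limit on the lower side, so the count past the limit is near that of all genes. Lap3, an aminopeptidase induced by interferon-gamma, read 280.4 against 423.9 (−0.66). Nlrc5, the transactivator of MHC class I and immunoproteasome genes, read 936.0 against 1247 (−0.48, another probe 0.18). The chaperone gene Calr was at −0.41.

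In interferon-gamma signalling, the pathway that induces Psmb8, Psmb9, Psmb10, Psme1 and Psme2, 13 of 15 genes were below 0, and 6 were past the limit, all lower, with a median of −0.26 (57.4% and 15.5% of all genes). Gbp3, a guanylate-binding protein gene, was at −0.65. The chemokine gene Cxcl9 read 36.3 against 53.3 (−0.62), on a dim probe, and the receptor kinase gene Jak1 was at −0.56. Irf1, which acts directly on the Psmb9 promoter, was at −0.13 (another probe −0.18). These lists were chosen with earlier results of these arrays known, so their direction is not independent evidence, and they were not recomputed under the alternatives.

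**Figure D5:**
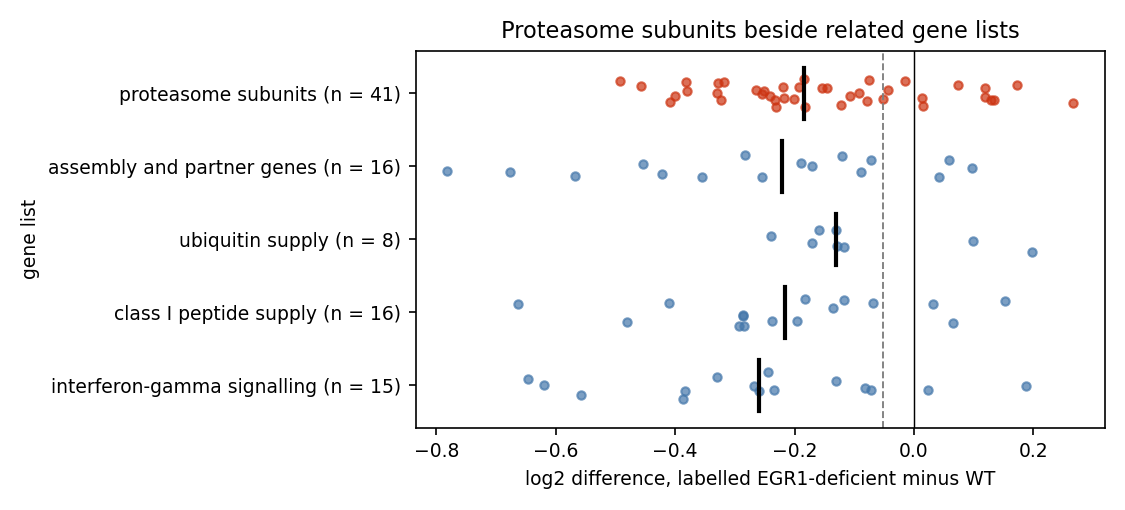
Log2 difference between the arrays (x axis) of 41 proteasome subunits (red) and of the genes of related lists (blue), 1 point per gene. Thick bars are medians and the dashed line is the median of all genes (−0.05). The medians of the related lists lie between −0.26 and −0.13, beside −0.18 for the subunits.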

How the data were processed

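RNA of 2 BMDC samples was hybridised to 1-colour Agilent arrays, per the labels. The authors deposited linear spot intensities, which per the file headers come from Agilent Feature Extraction 12.1.0.3, while the submitters' processing notes name 11.5.1.1. The processed intensity is background-subtracted by the scanner program. The deposited series table of intensities equals it times 6.18 and 5.97, over 29296 spots. No spot was saturated, and 77 and 79 outlier spots were left out.

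Each array's processed intensities were scaled to their 75th percentile, leaving out control spots, and log2 values were computed with Python 3.11.15. Probes were named by accession through the RefSeq table of GRCm38.p6, and a gene was represented by its brightest probe. The array files name build mm9, so no probe coordinates are given. With 1 array per group no test was possible, and counts past log2 differences of 0.32 and past 1.5-fold and 2-fold are set beside those over all genes. Array number limits the precision. The scanner error is the deposited error of each processed intensity, combined over both arrays.

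Named genes were the immunoproteasome genes, their constitutive counterparts, the 4 highest and 4 lowest other subunits, subunits not above background, those with probes over 0.5 apart, and up to 3 genes per related list by size, of which some are not reported here. Pomp, Nfe2l1, Irf1, Tap1, Tap2, Psme2b, Xist and the subunits given by value alone were named beyond this rule. The subunits and lists were chosen with earlier results of these data known. The alternatives were normexp (offset 50, limma 3.58.1, on median spot intensities because the files used hold no mean signal), quantile and loess normalization, another percentile base, the series table, no or a stricter filter on dim probes, and the mean of a gene's probes. Protein sequences were not used here.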

Additional observations from a re-analysis of the deposited data

How the results depend on the processing

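Under the 8 alternatives the immunoproteasome median, −0.17 in the main setting, ran from −0.18 to −0.02 (quantile normalization) and that of the other subunits from −0.19 to −0.07. After quantile normalization the immunoproteasome median was −0.024 beside −0.025 for all genes, and after loess −0.037 beside −0.030. Under the other alternatives it lay lower than the median of all genes. The mean change of the catalytic pairs ran from 0.00 to 0.09, while the median of all genes ran from −0.11 to 0.06. Of 327 values of single subunits, 325 moved by less than 0.17, the typical SD among probes for 1 gene, and 2 by more (Psmc4 to 0.25 and Psme4 to −0.04, both when a gene's probes were averaged). The 9 subunits lower past the limit of 0.32 became 5 after normexp, 5 after quantile and 5 after loess normalization, 4 with the percentile over spots above background on both arrays and 2 with the series table. The 0 higher became 1 after loess, 1 with that percentile and 1 with the series table. These settings shift or rescale all genes. The series table and the filters on dim probes also change which genes are counted, so shares are given beside counts. Over all genes, 2130 lower (15.5%) and 1562 higher (11.4%) past the same limit became 1040 (7.58%) and 470 (3.42%) after normexp. They became 2096 (15.3%) and 1475 (10.7%) after quantile and 2207 (16.1%) and 1388 (10.1%) after loess normalization. With the percentile over spots above background on both arrays they became 1455 (10.6%) and 2159 (15.7%). With the series table they became 919 (7.21%) and 2374 (18.6%). Without a filter they were 6633 (27.9%) and 4293 (18.0%), and with the stricter filter 1350 (12.9%) and 733 (7.02%). Of the subunits, 10 of 42 were lower without a filter and 9 of 40 with the stricter filter. With averaged probes 7 of 41 were lower (14.0% of all genes). The lower share of subunits was below that of all genes after quantile and loess normalization, with that percentile, the series table and no filter. It was above in the main setting, after normexp, with the stricter filter and with averaged probes. At 1.5-fold over all genes, 573 lower and 482 higher became 130 and 68 after normexp. They were 1932 and 2527 without a filter and 226 and 144 with the stricter filter, and the lower count was 236 with the series table. Apart from those after normexp, these 1.5-fold counts are over other sets of genes. No paired analysis was possible because there is 1 array per group, and a block for slide or scan could not be fitted for the same reason. The 1 array per group, the scanner error of 0.20 and the disagreement between probes limit what can be read, as does low signal for Psma8 and Psmb11.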
